A study of Mus musculus with 12 samples.

Results

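DEAD and DEAH box RNA helicases were read in mouse round spermatids as all gene symbols of the deposited table that begin with Ddx or Dhx followed by a digit. The germ cell helicase genes Ddx4 and Ddx25 and pseudogene symbols that contain -ps were left out. This gave 51 genes, 35 named Ddx and 16 named Dhx, of the 28668 symbols in the table. All 51 matched the mouse annotation, on 17 chromosomes, and 50 had a value above 0 in each of the 12 libraries. The cells came from 8-week-old males and were kept in cycloheximide, an inhibitor of translation elongation, while flow cytometry isolated them. The control males were Igf2bp3+/- and the knockout males were Igf2bp3-/-, so every animal carried at least 1 copy of a frameshift allele made by Cas9 injection into C57BL/6 zygotes. The methods state that Igf2bp3-/- males with impaired fertility were chosen, so the knockout group does not stand for all knockout males. Each genotype had 3 libraries of total RNA (RNA-seq) and 3 libraries of RNA from polysome fractions, which carried 4 or more ribosomes (RNC-seq). By the methods a part of each extract was kept as input for RNA-seq and the rest was fractionated for RNC-seq, so the assays share their animals, but the labels do not tie a library of one assay to a library of the other.

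Most of these helicases use ATP to unwind RNA duplexes or to remove proteins from RNA. They take their family names from conserved motif II, whose residues are Asp-Glu-Ala-Asp in DEAD box proteins and Asp-Glu-Ala-His in DEAH box proteins. Members act at almost every step in the life of an RNA: DEAH box enzymes drive the spliceosome through its cycle, many DEAD box enzymes assemble ribosomes in the nucleolus, and others export, translate, store or sense RNA. Round spermatids still transcribe their haploid genome and also store many mRNAs, which are translated only after transcription has stopped.

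The table gives FPKM, a relative level in which fragments are scaled to the length of the transcript and to the total of the library. Read depth is unknown. A relative depth read from the lowest values was 1 in Igf2bp3-/- RNA-seq replicate 1 and 0.380 to 0.550 in the other 11 libraries. The targeted gene Igf2bp3 stood at 38.2, 38.6 and 33.4 FPKM in the Igf2bp3+/- RNA-seq libraries and at 31.7, 32.5 and 31.4 in the Igf2bp3-/- libraries, and a gene-level FPKM cannot show a frameshift, so it does not check the genotype labels. The 6 round spermatid markers summed to 701 FPKM or more in every RNA-seq library, and the 5 spermatogonial markers to 4.06 or less. The 4 genes of the elongating spermatid list, Tnp1, Tnp2, Prm1 and Prm2, summed to far more, 8042 to 10390 FPKM in RNA-seq. In RNC-seq they summed to 11272 to 13893 in Igf2bp3+/- and 10030 to 20816 in Igf2bp3-/-. The paper measured mRNAs of these genes by qPCR in sorted round spermatids. Their sums therefore do not measure a share of elongating spermatids in the libraries. The 5 spermatocyte markers summed to 70.2 to 108 FPKM in RNA-seq and 82.8 to 198 in RNC-seq, with overlap between genotypes. The round spermatid sum itself moved with genotype, at 701 to 814 FPKM in Igf2bp3+/- and 920 to 1075 in Igf2bp3-/- RNA-seq libraries and at 861 to 1029 and 1055 to 1368 in RNC-seq. Markers of somatic testis cells were low and also moved with genotype: the 6 Leydig cell markers summed to 15.2 to 22.5 FPKM in the Igf2bp3+/- and 48.4 to 54.7 in the Igf2bp3-/- RNA-seq libraries, led by the hormone gene Insl3. The 4 Sertoli cell markers in the table summed to 3.18 to 3.97 and 6.90 to 7.43 in the same order. That rise was in Clu, with group means of 3.12 and 6.69 FPKM. Rhox5 went from 0.203 to 0.130, and the defining genes Sox9 and Wt1 were near 0 in both genotypes. The 5 macrophage markers summed to 4.58 to 5.61 and 7.51 to 8.79. The 3 peritubular markers overlapped in RNA-seq (0.809 to 1.07 and 0.834 to 1.07) and stood apart in RNC-seq (0.749 to 0.818 and 1.12 to 1.24).

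The codons of motif II were searched in frame in the longest annotated coding sequence of each gene (GENCODE M21, GRCm38). Codons for Asp-Glu-Ala-Asp occurred once in 25 Ddx genes, and codons for Asp-Glu-Ala-His occurred once in 8 Dhx genes. Ddx10 held the DEAD codons at 2 places. The symbol and the motif parted in Ddx11, a gene of chromosome cohesion and genome maintenance that held the DEAH codons. The DEAD codons in Dhx29 began at base 3352 of its 4095 coding bases, away from the usual place of motif II, and are not counted as its motif. Neither motif was found in 8 Ddx and 7 Dhx genes, among them Ddx39 and Ddx39b. Of 21569 coding sequences searched, 0.756% held the DEAD codons and 0.348% the DEAH codons at least once in frame. The following stretches are shown because these members mark the ends of the polysome ratio described later: the first 5 were the lowest of all members and Ddx47 and Ddx41 were among the highest. Each is 30 bases of the coding strand, 5′ to 3′, in 1 coding exon, with the 12 bases of motif II in capitals.
Ddx46 (exon 13 of 23, chr13:55660749-55660778, plus strand): gttgttttaGATGAAGCAGACagaatgttt
Ddx42 (exon 11 of 18, chr11:106238565-106238594, plus strand): cttgtgtttGATGAAGCCGATcgaatgttt
Ddx23 (exon 13 of 17, chr15:98648625-98648654, minus strand): gtggttctgGATGAGGCGGATaggatgatt
Dhx38 (exon 14 of 27, chr8:109556056-109556085, minus strand): gtcatcatgGATGAGGCCCACgagcgctcc
Dhx16 (exon 10 of 20, chr17:35885499-35885528, plus strand): gtgatggtgGATGAAGCTCACgagcggacc
Ddx47 (exon 5 of 12, chr6:135015890-135015919, plus strand): ttggtcatgGATGAAGCAGACcggatactg
Ddx41 (exon 10 of 17, chr13:55533047-55533076, minus strand): ctagccctgGATGAAGCTGACcgcatgatt
The 12 motif bases were the same in Ddx46 and Ddx47, which lay at opposite ends of that order.

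Most members were well above the typical gene in total RNA. In the Igf2bp3+/- RNA-seq libraries their group means ran from 0.0454 to 452 FPKM with a median of 9.59, against a median of 1.91 over the 20494 genes with a mean above 0.1. There were 2 members at 100 FPKM or more, 23 between 10 and 100, 16 between 1 and 10, and 10 under 1. Ddx5, a cofactor of splicing and transcription, gave 32.1% of the summed FPKM of all members, and the 5 highest members gave 59.2%. Its values were 462, 450.3 and 444 in Igf2bp3+/- and 452, 476 and 546 in Igf2bp3-/- RNA-seq libraries, so the genotypes overlapped. Part of this level cannot be assigned, since a stretch of 51.5% of the Ddx5 transcript has a near-identical copy in the processed pseudogene Gm12183, itself at 16.0, 16.3 and 17.01 FPKM in the Igf2bp3+/- RNA-seq libraries.

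Next in order came Ddx20, which belongs to the SMN complex that assembles spliceosomal snRNPs, at 160, 156 and 173 FPKM in the Igf2bp3+/- RNA-seq libraries. Dhx30, needed for mitochondrial ribosome assembly, stood at 83.3, 99.8 and 99.0. These 3 leading members did not overlap in those libraries and so kept their order. The nucleolar helicases Ddx24, at 63.7, 63.1 and 60.9, and Ddx49, at 55.4, 61.03 and 66.6, overlapped and could not be ranked. Exons of Ddx49 overlap the opposite-strand gene Homer3 over 29.8% of their bases, and the sources used here do not say if quantification was strand-specific.

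By role, the 13 splicing members had the highest median of the groups with more than 2 members, at 22.2 FPKM, followed by 10.7 for the 4 export helicases and 9.16 for the 16 members of ribosome biogenesis. The 7 members of translation and mRNA regulation had a median of 3.75 FPKM and spanned 0.333 (Ddx3x) to 53.2 (Ddx1, a component of RNA granules and of tRNA ligation). Innate RNA sensors were split. Dhx58, which encodes LGP2, stood at 31.7, 35.6 and 40.4 FPKM in the Igf2bp3+/- RNA-seq libraries, whereas Ddx58, which encodes the viral RNA sensor RIG-I, stood at 0.377, 0.314 and 0.365. Ddx60, a further antiviral member, was at 0.0734 or less in every library and listed at 0 in 4 of the RNC-seq libraries. It was the single member below the minimum mean of 0.1 FPKM, so each test covered 50 of 51.

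**Figure D1:**
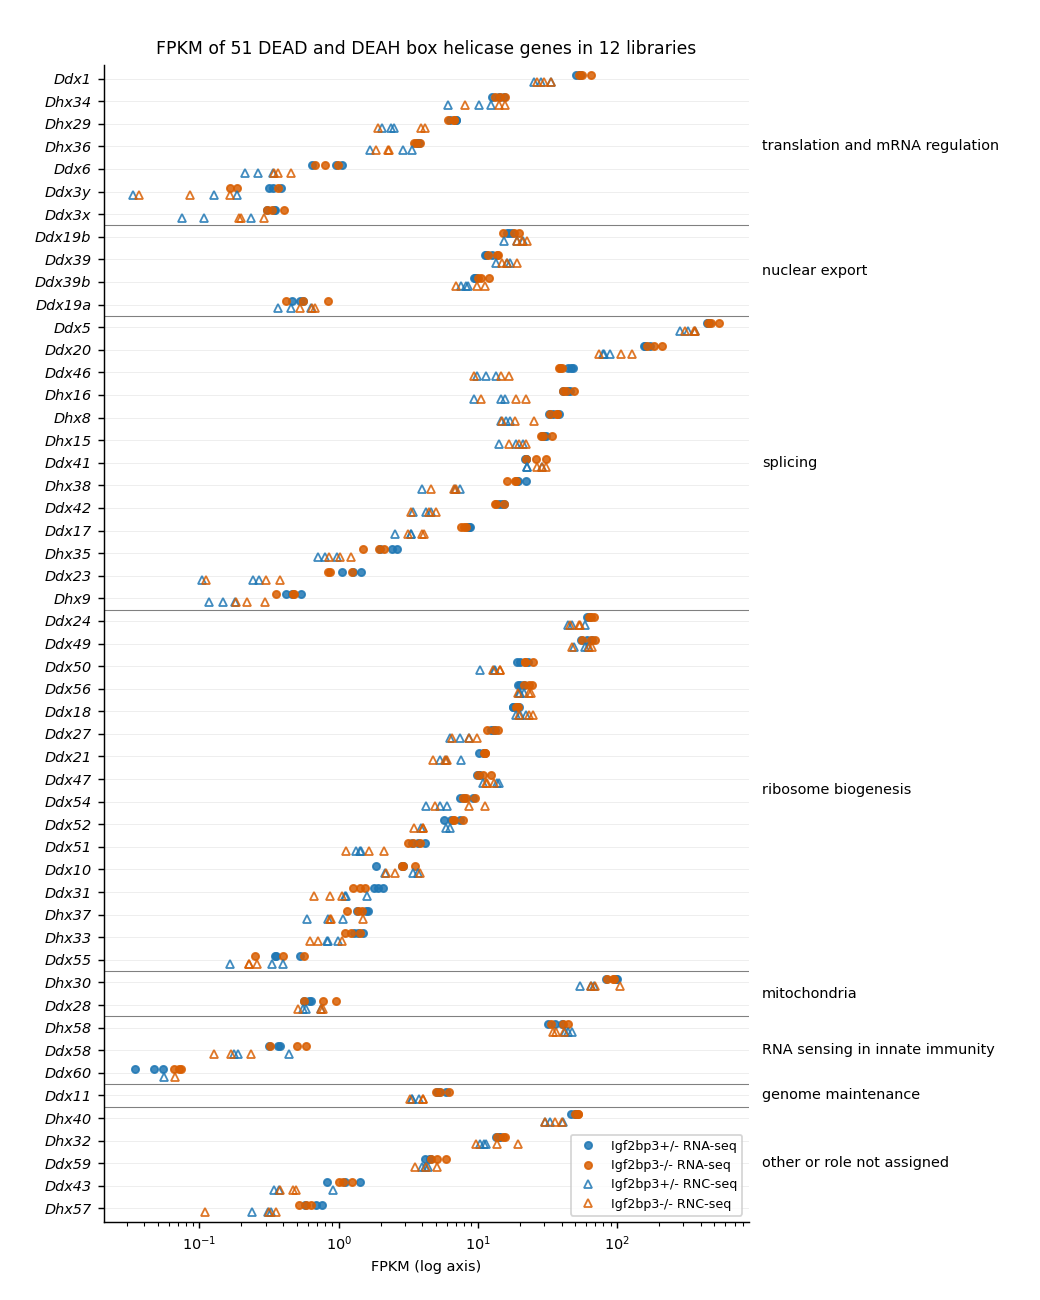
FPKM of the 51 helicase genes (rows, grouped by role and ordered within a role by the Igf2bp3+/- RNA-seq mean) in each of 12 libraries, on a log axis. Circles are RNA-seq and triangles RNC-seq libraries, blue is Igf2bp3+/- and orange Igf2bp3-/-, and values of 0 (Ddx60 in 4 RNC-seq libraries) are not drawn. Ddx5 at the top of the splicing group reaches 546 FPKM, and triangles lie left of the circles for most splicing members.

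The clearest pattern among the helicases was their place on polysomes. The polysome ratio is the log2(FPKM + 0.1) of RNC-seq minus that of RNA-seq within a genotype, a difference relative to all transcripts in each library and not a count of ribosomes per mRNA. In Igf2bp3+/- spermatids 30 of the 50 members tested were lower on polysomes and 0 were higher at a limma adjusted p under 0.05. Over all 18414 genes tested, 25.2% were lower and 18.6% were higher. In Igf2bp3-/- spermatids 26 of 50 members were lower and 0 were higher, against 14.0% lower and 12.5% higher over all genes. In the limma test of single members without adjustment, 3 members in Igf2bp3+/- and 1 in Igf2bp3-/- were higher at p under 0.05. The median polysome ratio of the members was -0.62 in Igf2bp3+/- and -0.63 in Igf2bp3-/-, and that of all genes was -0.10 and -0.04. Of the 50 members, 39 lay below the all-gene median in Igf2bp3+/- and 44 in Igf2bp3-/-. Among protein-coding genes alone, 30.9% and 17.5% were lower in the same order. In RNA from sorted cells, fewer cells of a type and less RNA per cell cannot be told apart, and a ratio of libraries adds that each assay has its own total.

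These counts moved with the scale and with single replicates. With each library centred on its own median, 22 members were lower and 3 (Ddx39, Ddx47 and Dhx58) were higher in Igf2bp3+/-, and 26 were lower and 1 (Ddx39) was higher in Igf2bp3-/-. That scale called 8346 of 18414 genes in Igf2bp3+/-, 3621 of them lower, and 5308 in Igf2bp3-/-, 2468 of them lower. Without Igf2bp3+/- replicate 1, 17 members were lower in Igf2bp3+/-, and without Igf2bp3-/- replicate 1 or replicate 3, 14 were lower in Igf2bp3-/-. Over all genes the lower calls fell too. They went from 4639 to 3176 in Igf2bp3+/-, and from 2583 to 1414 and 1126 in Igf2bp3-/- in the same order. No member was called higher in these 3 fits.

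**Figure D2:**
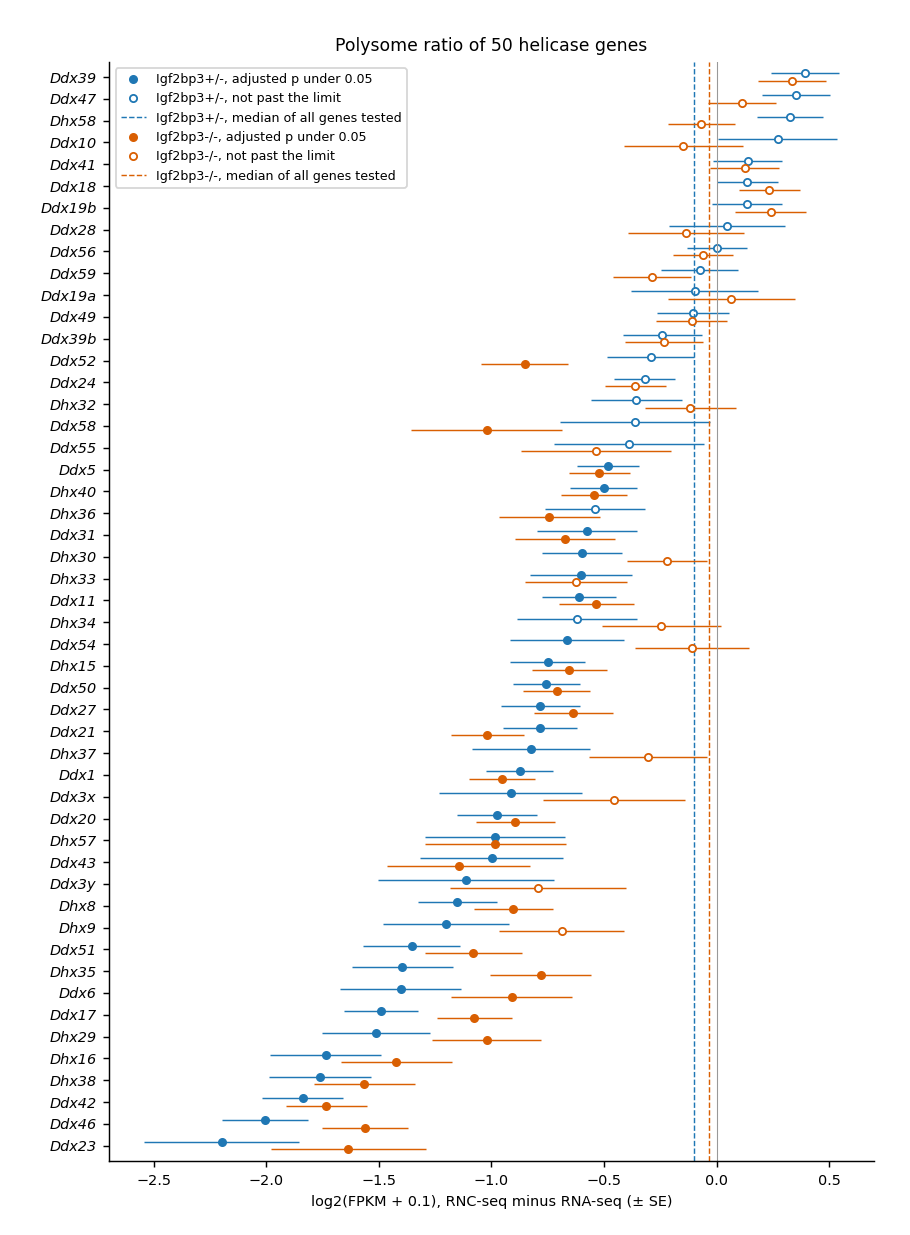
Polysome ratio of the 50 members tested, as log2(FPKM + 0.1) in RNC-seq minus RNA-seq with the limma standard error, ordered by the value in Igf2bp3+/- (blue); Igf2bp3-/- is orange. Filled points passed an adjusted p of 0.05 and dashed lines mark the median of all genes tested, -0.10 and -0.04; the lowest member was Ddx23 at -2.20 and the highest Ddx39 at 0.39.

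Splicing helicases lay lowest. In Igf2bp3+/- spermatids 12 of the 13 splicing members were lower on polysomes, with a median of -1.40, and in Igf2bp3-/- 11 of 13 were lower, with a median of -0.90. Over all genes 25.2% and 14.0% were lower, and among protein-coding genes above 2211 coding bases 63.3% and 40.3%. The 5 lowest of all members in Igf2bp3+/- all act in the spliceosome. Ddx46, the mouse counterpart of yeast Prp5, which acts at the branch point, stood at 47.0, 44.8 and 48.2 FPKM in RNA-seq and 9.85, 11.5 and 13.5 in RNC-seq libraries of Igf2bp3+/-. In Igf2bp3-/- it stood at 40.6, 39.2 and 38.2 in RNA-seq and 14.7, 16.8 and 9.42 in RNC-seq. The assays did not overlap in either genotype: mean RNC-seq FPKM was 0.249 times and 0.347 times the RNA-seq mean, with limma log2 ratios of -2.01 ± 0.19 (SE, adjusted p = 9.22e-06) and -1.56 ± 0.19 (adjusted p = 0.000172).

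Ddx42, an SF3b-associated protein of the early spliceosome, stood at 14.8, 15.5 and 14.1 FPKM in RNA-seq and 3.43, 4.25 and 4.62 in RNC-seq of Igf2bp3+/-, a log2 ratio of -1.84 ± 0.18 (limma adjusted p = 9.77e-06). In Igf2bp3-/- the values were 13.4, 13.6 and 15.5 against 4.43, 5.00 and 3.29, a log2 ratio of -1.73. Every polysome value lay under every total value in both genotypes. Dhx38, the counterpart of Prp16, which acts between the catalytic steps, stood at 19.0, 19.5 and 22.3 against 4.00, 6.87 and 7.44 in Igf2bp3+/-, with a log2 ratio of -1.76 ± 0.22 (limma adjusted p = 6.13e-05). Dhx16, the counterpart of Prp2, which activates the spliceosome, stood at 40.8, 44.1 and 45.7 against 9.47, 14.7 and 15.8, with a log2 ratio of -1.74 ± 0.25 (limma adjusted p = 0.000128). For Dhx16 and Dhx38 too the assays did not overlap. Ddx23, the Prp28 counterpart of the tri-snRNP, was the lowest of all at -2.20 ± 0.35 (limma adjusted p = 0.000245), on low values of 1.46, 1.27 and 1.06 in RNA-seq and 0.268, 0.103 and 0.242 in RNC-seq.

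The other splicing members followed at smaller differences. Ddx17, the paralog of Ddx5, had a ratio of -1.49 in Igf2bp3+/- and -1.08 in Igf2bp3-/-, and Ddx20 had -0.98 and -0.89. Ddx5 itself stood at 326, 283 and 367 FPKM in the Igf2bp3+/- RNC-seq libraries, under all 3 total values, with a log2 ratio of -0.48 ± 0.14 (limma adjusted p = 0.0114). It was therefore the most abundant member in both assays although its ratio was low. Ddx41, named both for late splicing and for DNA sensing, was the exception among splicing members. It stood at 22.3, 22.2 and 22.0 FPKM in RNA-seq and 22.4, 28.7 and 22.6 in RNC-seq of Igf2bp3+/-, a log2 ratio of 0.14 ± 0.15 (limma adjusted p = 0.500). Exons of Ddx41 overlap the opposite-strand gene Gm46416 over 17.4% of their bases, and rescaling to TPM (transcript shares of the library) turned its ratio to -0.21.

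Helicases of ribosome biogenesis were mixed. Of 16 members 8 were lower on polysomes in Igf2bp3+/- and 6 in Igf2bp3-/-, with medians of -0.48 and -0.45, where 25.2% and 14.0% of all genes were lower. Ddx51, an enzyme of large-subunit rRNA processing, was lowest at -1.35, on 3.36, 4.15 and 3.71 FPKM in RNA-seq and 1.33, 1.42 and 1.45 in RNC-seq. At the other end, Ddx47, which acts in early rRNA processing, stood at 10.2, 10.2 and 9.85 in RNA-seq and 13.7, 10.96 and 14.2 in RNC-seq of Igf2bp3+/-. The assays did not overlap for Ddx47 in that genotype, but its log2 ratio of 0.35 ± 0.15 missed the limit (limma adjusted p = 0.0716). In Igf2bp3-/- its ratio was 0.11 ± 0.15 (limma adjusted p = 0.619). Ddx10 had ratios of 0.27 and -0.15 with standard errors of 0.26, so its sign was not settled, and Ddx18 had 0.14 and 0.23, on reads that its pseudogene copies Gm16433 and AC122481.1 could share.

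Most members that handle translation and mRNA storage were themselves low on polysomes. Of 7 such members 5 were lower in Igf2bp3+/- and 4 in Igf2bp3-/-, with medians of -0.92 and -0.79, where 25.2% and 14.0% of all genes were lower. The 5 included Ddx3x, Ddx3y and Ddx6, at low Igf2bp3+/- RNA-seq means of 0.333, 0.346 and 0.888 FPKM. Ddx3x and Ddx3y did not pass in Igf2bp3-/-. Dhx29, which helps ribosomes scan structured 5′ leaders, had a ratio of -1.51 ± 0.24 in Igf2bp3+/-, on 6.998, 6.32 and 6.93 FPKM in RNA-seq and 2.04, 2.38 and 2.49 in RNC-seq. Ddx6, a repressor of translation found in P-bodies, stood at 0.646, 1.06 and 0.960 in RNA-seq and 0.262, 0.211 and 0.339 in RNC-seq of Igf2bp3+/-, with a log2 ratio of -1.40 ± 0.27 (limma adjusted p = 0.001001). Ddx1 stood at 54.0, 54.7 and 51.1 against 28.4, 25.3 and 33.8, with a log2 ratio of -0.88 ± 0.15 (limma adjusted p = 0.000400). Each of these 3 genes had separate values in the assays. Dhx36, which unwinds G-quadruplexes, had a ratio of -0.54 in Igf2bp3+/- (limma adjusted p = 0.0646) and -0.74 in Igf2bp3-/- (limma adjusted p = 0.0258).

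None of the 4 nuclear export helicases passed in either genotype, although Ddx39 lay at the limit. Their median polysome ratios were 0.02 in Igf2bp3+/- and 0.15 in Igf2bp3-/-. Ddx39, which encodes a paralog of the TREX subunit UAP56, was the highest of all members. It stood at 12.7, 11.3 and 11.5 FPKM in RNA-seq and 16.9, 13.6 and 16.2 in RNC-seq of Igf2bp3+/-, and at 11.8, 13.9 and 14.0 against 19.0, 14.9 and 16.1 in Igf2bp3-/-. The assays did not overlap in either genotype, and its log2 ratio was 0.39 ± 0.15 in Igf2bp3+/- (limma adjusted p = 0.0503), just outside the limit, and 0.33 ± 0.15 in Igf2bp3-/- (limma adjusted p = 0.121). In Igf2bp3+/- it was called higher with a pseudocount of 1 (limma adjusted p = 0.0497) or 0.01 (0.0486), among genes with a mean above 1 FPKM (0.0446), after quantile normalization (0.0139) and with library weights (0.0138), as well as with centred libraries. Exons of Ddx39 overlap the opposite-strand gene Adgre5 over 17.4% of their bases. Its paralog Ddx39b, which encodes UAP56, had ratios of -0.24 and -0.23, and Ddx19b, a factor of the nuclear pore, had 0.13 and 0.24.

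Among the remaining roles, Dhx58 stood at 44.4, 42.2 and 47.9 FPKM in RNC-seq of Igf2bp3+/-, above all 3 total values, with a log2 ratio of 0.33 ± 0.15 (limma adjusted p = 0.0911), whereas in Igf2bp3-/- its assays overlapped at a ratio of -0.07. Dhx30 was lower in Igf2bp3+/- at -0.60 and did not pass in Igf2bp3-/- at -0.22. Ddx43, a germ cell helicase also known from tumours, had ratios of -0.999 and -1.15, on 0.825, 1.43 and 1.11 FPKM in RNA-seq and 0.375, 0.344 and 0.913 in RNC-seq of Igf2bp3+/-, where the assays overlapped. Exons of Ddx43 overlap the opposite-strand gene 4930542C12Rik over 15.9% of their bases. Ddx11 was lower in both genotypes, at -0.61 and -0.53.

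**Figure D3:**
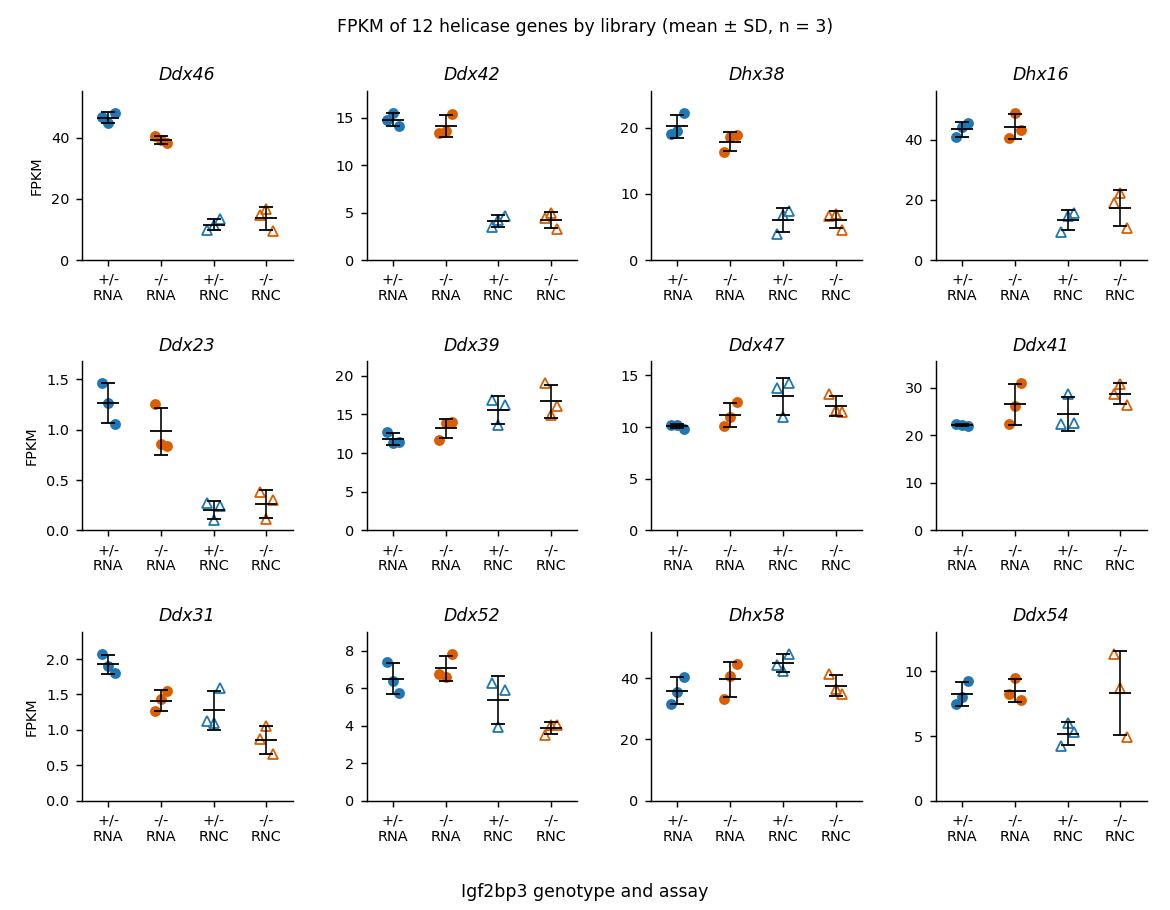
FPKM of 12 members in each library, by genotype (+/- blue, -/- orange) and assay (circles RNA-seq, triangles RNC-seq), with bars for the mean and SD of 3 libraries and axes that start at 0. The first 5 panels are the members lowest on polysomes, where all RNC-seq points lie under all RNA-seq points. In Ddx39 the RNC-seq points lie above the RNA-seq points of the same genotype.

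Across the 2 genotypes, 23 of 50 members were lower on polysomes in both, where 12.7% of all genes were. Beside these, 7 were lower in Igf2bp3+/- alone (Ddx3x, Ddx3y, Ddx54, Dhx30, Dhx33, Dhx37 and Dhx9) and 3 in Igf2bp3-/- alone (Ddx52, Ddx58 and Dhx36). None of these 10 passed when the difference of the ratios between genotypes was tested, the smallest limma adjusted p among all members being 0.710. That test called 1 of 18414 genes, so the absence of a call does not show that the ratios were equal. The members above the all-gene median in both genotypes numbered 6: Ddx18, Ddx19a, Ddx19b, Ddx39, Ddx41 and Ddx47.

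The polysome ratio went down with the length of the coding sequence, both in the members and in the genome at large. Across the 50 members, which are not independent replicates and share their libraries, the ratio in Igf2bp3+/- and log10 coding length had a Pearson's r of -0.52 and a Spearman's rho of -0.54. Across 12823 protein-coding genes the values were -0.55 and -0.54. Of the 25 members with a coding sequence above the members' median of 2211 bases, 19 were lower on polysomes in Igf2bp3+/- (76.0%, median ratio -0.78). Among the 3037 protein-coding genes of that length, 63.3% were lower, with a median of -0.88. Of the 25 shorter members 11 were lower (44.0%, median -0.29), against 20.9% of 9786 shorter protein-coding genes with a median of -0.06. In Igf2bp3-/- the shares were 68.0% of long members against 40.3% of long genes, and 36.0% of shorter members against 10.4% of shorter genes. The Igf2bp3-/- medians were -0.74 for long members against -0.57 for long genes, and -0.45 against -0.02 for the shorter ones. Roles differed in coding length: export members had 1281 to 1482 bases and splicing members 1845 to 4152. The part of coding length in the helicase pattern, or in the order of roles, was not tested. Ddx10 was the highest of the long members, at a ratio of 0.27 with 2625 coding bases, and Ddx17 the lowest of the shorter ones, at -1.49 with 1956.

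**Figure D4:**
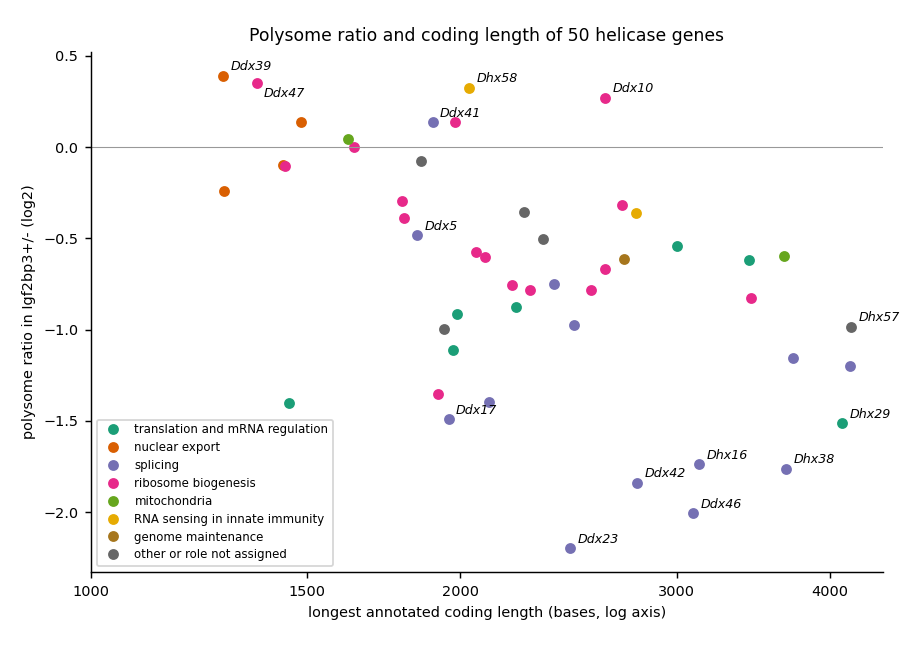
Polysome ratio in Igf2bp3+/- (log2, RNC-seq minus RNA-seq) against the longest annotated coding length (bases, log axis) for 50 members, coloured by role. The 5 spliceosomal members at the bottom have coding lengths of 2457 to 3684 bases, and Ddx39 and Ddx47 at the upper left have 1281 and 1365.

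The X-linked gene Ddx3x and its Y-linked partner Ddx3y, whose products promote translation of structured mRNAs, were close to the lower limit of the data. Ddx3x stood at 0.304, 0.351 and 0.344 FPKM in the Igf2bp3+/- RNA-seq libraries and at 0.306, 0.404 and 0.331 in the Igf2bp3-/- libraries. Ddx3y stood at 0.384, 0.336 and 0.317 in Igf2bp3+/- and at 0.165, 0.186 and 0.364 in Igf2bp3-/-. Both genotypes overlapped for both genes. By contrast D1Pas1, the autosomal member of the same subfamily, which is expressed in male germ cells and carries a symbol outside the rule, stood at 69.1, 79.1 and 82.9 FPKM in Igf2bp3+/- and 69.8, 72.5 and 73.6 in Igf2bp3-/- RNA-seq libraries. Its log2 polysome ratio was -1.51 ± 0.19 in Igf2bp3+/- (limma adjusted p = 4.77e-05). Most of the FPKM listed for this subfamily thus stood under D1Pas1. The longest transcripts of Ddx3x and D1Pas1 were 85.3% identical over 2497 bases and those of Ddx3x and Ddx3y 76.7% over 3676. Motif II and its neighbours differed in silent and flanking bases among the 3 genes, which are shown because reads from such stretches tell them apart only where bases differ.
Ddx3x (exon 11 of 17, chrX:13289399-13289428, plus strand): ctggtgttaGATGAAGCTGACcggatgtta
Ddx3y (exon 11 of 17, chrY:1265940-1265969, minus strand): ttagtattgGATGAAGCTGATaggatgctg
D1Pas1 (exon 1 of 1, chr1:186968902-186968931, plus strand): ttggtgttaGATGAAGCAGATcgaatgttg

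The neighbouring paralogs Ddx19a and Ddx19b on chromosome 8 were 94.0% identical over 1608 bases of their longest transcripts, and the 30 bases around motif II did not differ. How reads were divided between them was not tested.
Ddx19a (exon 8 of 12, chr8:110979077-110979106, minus strand): tttgttctgGACGAGGCTGATgtgatgata
Ddx19b (exon 8 of 12, chr8:111011326-111011355, minus strand): tttgttctgGACGAGGCTGATgtgatgata
Listed levels were nevertheless far apart: Ddx19a stood at 0.530, 0.465 and 0.558 FPKM and Ddx19b at 16.1, 16.7 and 17.7 in the Igf2bp3+/- RNA-seq libraries. Paralogs with less identity also differed in level. In the same libraries Ddx5 at 452 ± 9.03 FPKM (SD, n = 3) stood against Ddx17 at 8.70, and Ddx50 at 20.8 against Ddx21 at 10.8. Ddx39 at 11.8 and Ddx39b at 9.59 were close there, with every Ddx39 value above every Ddx39b value. In the Igf2bp3-/- RNA-seq libraries the values of Ddx39 and Ddx39b overlapped.

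The question put to genotype was whether loss of Igf2bp3, an RNA-binding protein of late spermatocytes and spermatids, changed the level of helicase mRNAs or their presence on polysomes. In RNA-seq 0 of 50 members passed an adjusted p of 0.05 in limma, where 0.256% of 20352 genes passed. Without adjustment, at p under 0.05, 0 members were higher, where 10.4% of all genes were, and 2 were lower, where 5.32% of all genes were. The median log2 difference of the members, Igf2bp3-/- minus Igf2bp3+/-, was 0.04, and that of all genes 0.05; quantile normalization and rescaling to TPM each gave the members -0.03. Without Igf2bp3-/- replicate 1 the median of the members was 0.087, and without Igf2bp3+/- replicate 1 it was 0.010. Medians of all genes in these fits were 0.063 and 0.065. Values of the 2 genotypes stood apart, with no overlap, for 4 members that were higher (Ddx21, Ddx39b, Ddx56 and Ddx59; 14.1% of all genes) and 4 that were lower (Ddx17, Ddx31, Ddx46 and Dhx38; 8.68% of all genes). Of these counts of 50, the higher one was below its background share and the lower one was near its own.

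Ddx46 had the smallest p of all members in RNA-seq. Its 3 Igf2bp3-/- values of 40.6, 39.2 and 38.2 FPKM all lay under the 3 Igf2bp3+/- values given above, a log2 difference of -0.24 ± 0.08 (limma adjusted p = 0.230). Ddx31, a nucleolar helicase, stood at 2.07, 1.91 and 1.81 FPKM in Igf2bp3+/- and 1.26, 1.44 and 1.55 in Igf2bp3-/-, a log2 difference of -0.42 ± 0.16 (limma adjusted p = 0.266). Neither passed after adjustment, although the genotypes were apart in these libraries. Dhx35, a member of the catalytic spliceosome, had -0.32 ± 0.18 (limma adjusted p = 0.427) with overlapping values of 2.63, 1.97 and 2.42 against 1.94, 1.501 and 2.12. On the other side the smallest p values belonged to Ddx41 at 0.24 ± 0.12 (limma adjusted p = 0.376), Ddx56 at 0.18 ± 0.09 (limma adjusted p = 0.379) and Ddx20 at 0.20 ± 0.11 (limma adjusted p = 0.405). Ddx41 overlapped at 22.3, 22.2 and 22.0 against 22.3, 26.3 and 30.9, and Ddx56, a helicase of the pre-ribosome, just separated at 19.6, 21.5 and 20.05 against 21.6, 23.5 and 24.4.

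In RNC-seq 0 of 50 members passed an adjusted p of 0.05 in limma, where 0.115% of 19051 genes passed, and the smallest adjusted p of a member was 0.782. Without adjustment 0 members were higher or lower at p under 0.05, where 5.36% and 1.12% of all genes were. The median difference of the members was 0.13, the same as that of all genes, and became 0.01 with libraries centred on their medians and -0.01 after quantile normalization. A single abundant gene, CT010467.1, took 15.9% to 19.4% of the summed FPKM in Igf2bp3+/- and 8.14% to 14.6% in Igf2bp3-/- RNC-seq libraries, and its part in the shift of all genes was not tested. The genotypes did not overlap for 2 members that were higher (Ddx6 and Dhx9; 9.44% of all genes) and 2 that were lower (Ddx31 and Dhx58; 1.85% of all genes). Single libraries were at the ends for many members in both genotypes: Igf2bp3-/- replicate 2 held the highest of the 6 RNC-seq values for 22 members, and Igf2bp3-/- replicate 3 and Igf2bp3+/- replicate 1 each held the lowest for 16. Without Igf2bp3-/- replicate 3 the median of the members was 0.21 and that of all genes 0.15. In that fit 6 members were under an unadjusted p of 0.05, and the share of all genes was not computed. Without Igf2bp3-/- replicate 2 the median of the members was 0.04 and that of all genes 0.14.

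Ddx54, a nucleolar helicase, had the largest RNC-seq difference of the members. It stood at 4.26, 5.98 and 5.35 FPKM in Igf2bp3+/- and 11.4, 8.69 and 4.90 in Igf2bp3-/-, a log2 difference of 0.60 ± 0.31 (limma adjusted p = 0.782). The third knockout value lay inside the control range, so the genotypes overlapped. Dhx30 at 54.2, 64.6 and 67.9 against 69.7, 106 and 64.7 and Dhx29 at 2.04, 2.38 and 2.49 against 3.93, 4.19 and 1.92 overlapped through the same replicate 3, with log2 differences of 0.34 and 0.45. Ddx52, a helicase of the small subunit processome, stood at 6.29, 3.91 and 5.92 against 3.504, 4.06 and 4.03 and had -0.44 ± 0.25 (limma adjusted p = 0.808). Ddx31 at 1.13, 1.10 and 1.59 against 0.866, 1.05 and 0.664 had -0.52 ± 0.31 (limma adjusted p = 0.808). Its 3 knockout values lay under all 3 control values in both assays. The knockout values of 8.68% of all genes lay so in RNA-seq and 1.85% in RNC-seq, and the share in both was not computed. Dhx58 at 44.4, 42.2 and 47.9 against 41.3, 36.3 and 34.9 had -0.26 ± 0.19 (limma adjusted p = 0.832).

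**Figure D5:**
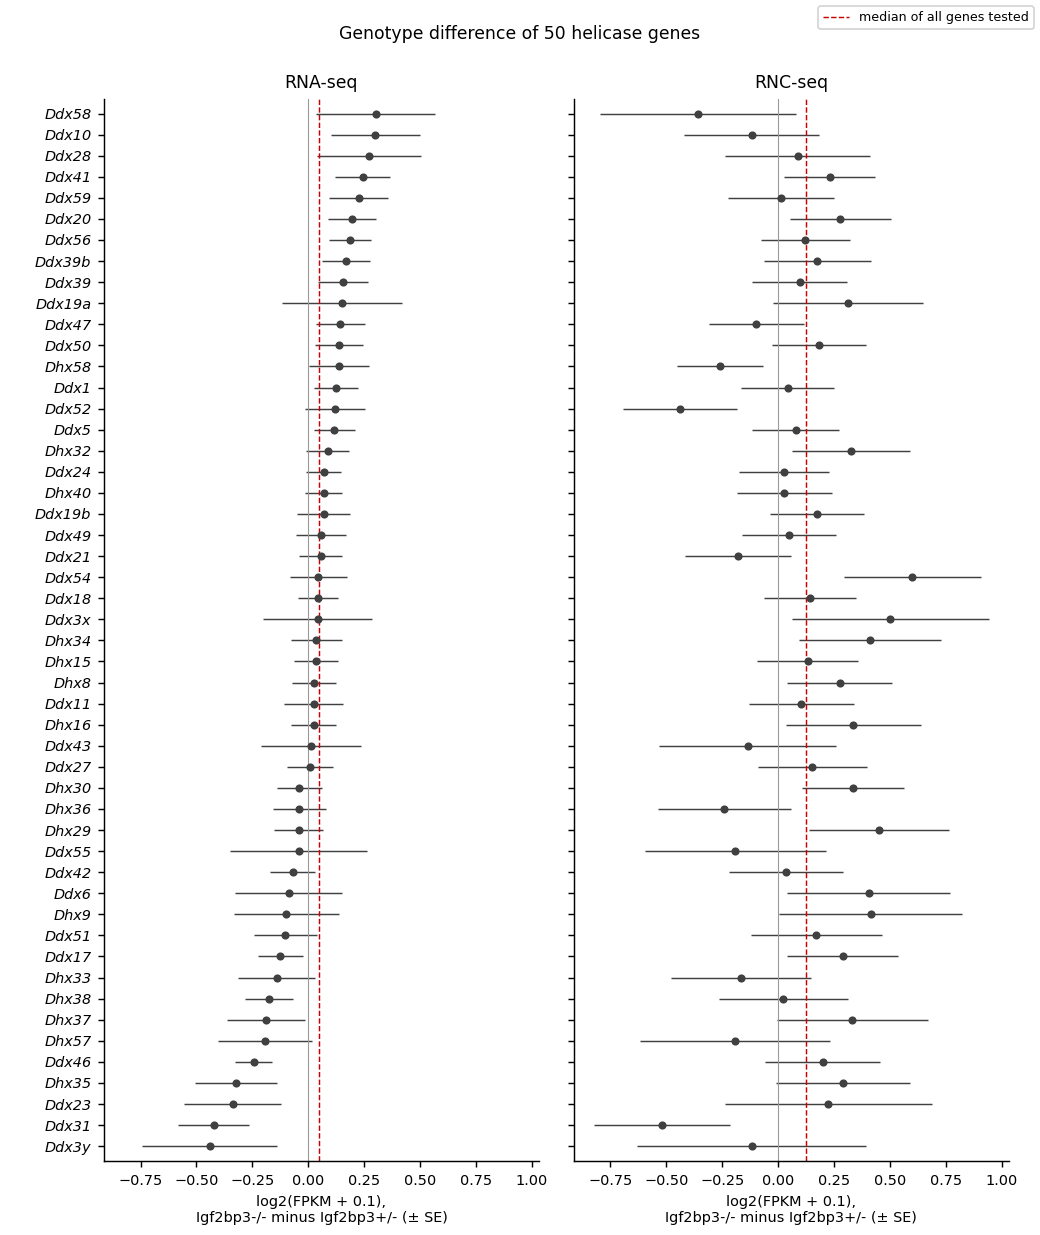
Difference between genotypes, Igf2bp3-/- minus Igf2bp3+/-, as log2(FPKM + 0.1) with the limma standard error for the 50 members tested, in RNA-seq (left) and RNC-seq (right), ordered by the RNA-seq value. The dashed line is the median of all genes tested, 0.05 and 0.13; 0 members passed an adjusted p of 0.05 on either side.

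Translational efficiency (TE) is RNC-seq over RNA-seq level, and its difference between genotypes was tested as an interaction term between genotype and assay in a fit to the 12 libraries. It passed for 0 of 50 members in limma, where 0.00543% of 18414 genes passed, and without adjustment 0 members were higher or lower at p under 0.05, where 5.54% and 1.58% of all genes were. The median difference was 0.08 in the members and 0.06 in all genes; it was -0.05 in the members with libraries centred on their medians. Without Igf2bp3-/- replicate 3 the median was 0.21 in the members and 0.13 in all genes. In that fit 4 members were under an unadjusted p of 0.05, or 7 members without its RNC-seq library alone. The share of all genes under that p was not computed in these fits. The median of the members was -0.018 without Igf2bp3-/- replicate 2, 0.011 without Igf2bp3-/- replicate 1, 0.0027 without Igf2bp3+/- replicate 1 and 0.14 without Igf2bp3+/- replicate 3. Medians of all genes were 0.050, 0.0082, 0.069 and 0.12 in the same order. The median standard error of a member was 0.27. The most positive and the most negative value were of similar size: Dhx35 at 0.61 ± 0.32 (limma adjusted p = 0.712) and Ddx58 at -0.66 ± 0.47 (limma adjusted p = 0.756). The rule for naming members also gave Ddx17 at 0.41 ± 0.23 (limma adjusted p = 0.718) and Ddx46 at 0.44 ± 0.27 (limma adjusted p = 0.731), which were above 0, and Ddx52 at -0.56 ± 0.27 (limma adjusted p = 0.710) and Dhx58 at -0.39 ± 0.21 (limma adjusted p = 0.716), which were below. By role the median was 0.37 in the 7 members of translation and mRNA regulation, 0.25 in the 13 splicing members, 0.06 in the 4 export helicases, -0.03 in the 16 members of ribosome biogenesis and -0.53 in the 2 RNA sensors tested, with 0 calls in any role. The Leydig cell, Sertoli cell (mainly Clu) and macrophage marker sums moved with genotype in RNC-seq as in RNA-seq, at 6.71 to 14.3 against 51.4 to 102 FPKM for the Leydig cell list, and their part in the helicase values was not tested.

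RNA helicases of related families under other symbols were also mostly low on polysomes. Of a list of 17, 16 were in the table and 15 were tested. In Igf2bp3+/- 12 were lower and 0 higher, with a median of -1.25, and in Igf2bp3-/- 9 were lower and 1, Eif4a1, which unwinds 5′ leaders for initiation, was higher. Over all genes 25.2% and 14.0% were lower and 18.6% and 12.5% higher. Snrnp200, the spliceosomal helicase that unwinds U4 from U6, was at -2.54 in Igf2bp3+/-. Of the genes set apart by the rule, Ddx4, the vasa gene, stood at 266, 260.4 and 257 FPKM in the Igf2bp3+/- RNA-seq libraries and had a log2 ratio of -1.37 ± 0.16, whereas Ddx25, a helicase of spermatid mRNA export and storage, stood at 98.2, 97.6 and 96.8 and had 0.02 ± 0.13. Neither passed the limma tests of genotype in RNA-seq, RNC-seq or TE, the smallest adjusted p being 0.197 for Ddx25 in RNA-seq.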

How the data were processed

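Round spermatids of 2 genotypes were measured by RNA-seq and RNC-seq, 3 libraries per group and 12 in all. The deposited file is a table of FPKM for the whole series. The authors trimmed reads with Trim Galore 0.6.6, mapped them to GRCm38 using Hisat2 and obtained FPKM from StringTie 2.1.7, under an annotation whose release is not given in the sources used here. FPKM is relative to each library's total, so a few abundant transcripts move all other values. The labels and the methods name different library kits and sequencers, and strand use is not stated.

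The limma package 3.58.1 (R 4.3.3) was run on log2(FPKM + 0.1), with a mean-variance trend and two-sided tests. The pseudocount shrinks fold changes of genes with low values. P-values were adjusted by the Benjamini-Hochberg method over all genes tested, with a limit of 0.05. Genotype was tested separately in either assay, over genes whose mean exceeded 0.1 FPKM. TE and the polysome ratio were fitted over all 12 libraries, treated as independent, among genes above that mean in both assays. The file holds no read counts, so no counting interval was computed. Symbols that spreadsheet software had turned into dates (25, with 0.0995% of FPKM) were left out. The scripts were tested on simulated data. By the methods each mouse gave its own sort, but the labels do not name the animals, so p-values measure the spread between these libraries. The labels give no batch or date.

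The genes and lists were chosen with earlier results of these data known. Named members were Ddx3x, Ddx3y, Ddx5, Ddx6, Ddx20, Ddx43 and Dhx36, the 3 with the smallest p in each direction of each genotype test, the 5 highest and the 5 lowest polysome ratios in Igf2bp3+/-, and the 5 highest in FPKM. Others were named as examples of their role or after their values were seen. Positions came from GENCODE M21 (GRCm38). Near-identical copies were found with BLAST 2.17.0 (95% identity or more along 50% or more of the gene's longest transcript). Alternatives were other pseudocounts, filters, scalings, library weights, a replicate block, another call rule and leaving out replicates. Rescaling to TPM, and the fits without 1 RNC-seq library, were added after seeing the data.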

Additional observations from a re-analysis of the deposited data

How the results depend on the processing

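No member passed the genotype tests in RNA-seq, RNC-seq or TE under any alternative run. With the replicate number as a block, 0 members were called in each of these 3 tests, and 28 members were called in the polysome ratio of Igf2bp3+/- and 23 in that of Igf2bp3-/-. Over all 18414 genes the block gave 7851 and 4863 polysome ratio calls in the same order. Deviations of same-numbered libraries correlated between -0.104 and 0.205 across assays and between -0.083 and 0.241 across genotypes, so the numbers were not taken to pair the samples, although the assays share their extracts by the methods, and the block changed no count of called members by over 1.5 times.

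The polysome ratio kept its direction over members under every alternative. Its median moved to -0.35 (pseudocount 1) and -0.92 (rescaled to TPM, where all genes had -0.30) in Igf2bp3-/-, and to -0.44 and -0.96 (all genes -0.43) in Igf2bp3+/-. Leaving out 1 replicate gave medians of -0.70 to -0.45 in Igf2bp3-/- and counts of called members of 14 to 25, and 17 to 30 called members in Igf2bp3+/-. The same fits called 2189 to 4772 of all genes in Igf2bp3-/- and 5302 to 8068 in Igf2bp3+/-. Rescaling to TPM left 2 of 50 members above 0 in Igf2bp3+/- in place of 9, and 1 in Igf2bp3-/- in place of 6. Among the members named by rule it turned the sign of Ddx10 (-0.065), Ddx41 (-0.21) and Dhx58 (-0.020) in Igf2bp3+/-, and Ddx41 (-0.16) and Ddx47 (-0.17) in Igf2bp3-/-. Leaving out 1 replicate gave Ddx10 -0.022 to 0.62 in Igf2bp3+/-, and in Igf2bp3-/- Ddx47 -0.020 to 0.23 and Dhx58 -0.26 to 0.072. Without the RNC-seq library of Igf2bp3-/- replicate 1 alone, Ddx10 was at 0.012 in Igf2bp3-/-. The causes of these shifts were not tested.

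Over all genes, the 52 calls between genotypes in RNA-seq became 4 with the block, 31 with no filter, 84 with library weights, 9 to 38 without 1 replicate and 1109 at an unadjusted p with a 1.5-fold change. The 22 calls in RNC-seq became 2 with no filter, 13 with centred libraries, 12 after quantile normalization, 48 in 1 fit of all 12 libraries, 1102 at an unadjusted p with a 1.5-fold change and 0 to 20 without 1 replicate, with 0 without Igf2bp3-/- replicate 1. The 1 call in TE became 0 to 2 under the other fits and 1207 at an unadjusted p with a 1.5-fold change.

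The number of libraries limits the genotype comparisons, and low FPKM limits members such as Ddx3x, Ddx3y, Ddx58 and Ddx23, whose fold changes depend on the pseudocount.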
